A study of Mus musculus with 7 samples.

Results

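The genes described here are 38 genes of myeloid cells and of antigen presentation, read in quadriceps muscle of AR113Q mice, a knock-in model of spinal and bulbar muscular atrophy (SBMA), and of WT mice. They were chosen by name, as genes that macrophages and other cells of the myeloid lineage are known for, together with the major histocompatibility complex (MHC) genes of class I and class II. The rule itself uses gene names only, but it was set with earlier results of these data known. On the array they were matched by gene name, by current symbol or by RefSeq accession, and 50 of 39429 probes read them. Of the 38 genes, 36 had a probe above background on enough arrays to be tested, among 16577 genes tested in all.

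SBMA is an inherited disease of motor neurons and muscle caused by an expanded glutamine repeat, and the AR113Q knock-in allele carries a humanized sequence with 113 repeats in place of the mouse sequence. Total RNA of quadriceps from mice of 3 months on a C57BL/6 background, labelled with Cy3, was hybridized to single-colour Agilent mouse arrays, with 4 WT and 3 AR113Q mice, 1 mouse per array and nothing pooled. WT is the name of the controls in the labels, but the study's own text on these mice speaks of a control knock-in with a short repeat, so which of these the control arrays hold is not settled in the sources used here. The question was how muscle transcripts of AR113Q mice differ from control at an age at which the series calls the mice presymptomatic.

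Macrophages are the main resident immune cells of skeletal muscle. They depend on colony stimulating factor 1 and its receptor, clear debris, and respond to fibre damage together with monocytes that enter from blood. MHC class II molecules present peptides taken up from outside the cell and are made mainly by dendritic cells, B cells and part of the macrophages, under the transactivator Ciita, while class I molecules present peptides made inside nearly every nucleated cell, muscle fibres included. In RNA of whole muscle, fewer cells of a type and less RNA per cell cannot be told apart.

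Values are log2 signals after quantile normalization of the background-subtracted intensity, 1 probe per gene, and log2 fold changes are AR113Q over WT. A gene was called if its adjusted p was at most 0.05 (limma, adjusted by the Benjamini-Hochberg method over every gene tested) and its log2 fold change was at least 1 in size. Each array had 47.6% to 55.8% of its probes well above background, and no array had a saturated spot. The arrays lay on 5 slides, and only slide 2 held both genotypes, as WT replicate 2 and AR113Q replicate 1. A fit with slide as a fixed effect therefore rests on that pair and called 0 genes of the whole array in either direction, with 6200 genes at an unadjusted p under 0.05.

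Single arrays of both genotypes stood apart for these genes. WT replicate 3 was the lowest of the WT arrays for 27 of the 36 tested members (75%), against 26.5% of all genes, and AR113Q replicate 2 was the highest of the AR113Q arrays for 23 of them (63.9%), against 28.5% of all genes. Both lay on the side of the other genotype. On the far side, WT replicate 4 was the highest WT array for 19 members (52.8%, against 24% of all genes) and AR113Q replicate 1 the lowest AR113Q array for 18 (50%, against 33.7%). The members called lower numbered 13 with all arrays, 15 and 14 without WT replicate 3 and AR113Q replicate 2, and 10 and 9 without WT replicate 4 and AR113Q replicate 1. Without WT replicate 1 they numbered 9, without WT replicate 2 there were 11, and without AR113Q replicate 3 there were 10. Red blood cell genes also set WT arrays apart, with a summed signal of 131098 in WT replicate 3 and 225472 in WT replicate 4 against 53076 to 67701 on the other arrays, and the part of blood in the members' values was not tested.

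Of the 36 tested members, 13 (36.1%) were called lower and 2 (5.56%) higher in AR113Q muscle. Among all genes tested, 24.3% were called, 13.1% lower and 11.2% higher. At the adjusted p alone, 17 members were lower and 2 higher, where 22.6% of all genes were lower and 21% higher. The median log2 fold change of the members was -0.82, and that of all genes was -0.01. It shrank to -0.34 with normexp background correction, -0.35 with the mean spot intensity and -0.28 with the authors' normalized values. The genes called lower were Csf1r, Adgre1, Cx3cr1, Aif1, Lyz2, Cd52, Trem2, Cd86 and the class II genes H2-Aa, H2-Ab1, H2-Eb1, H2-DMa and H2-DMb1, and those called higher were Cd14 and Gpnmb. The values of the genotypes did not overlap for 14 members that were lower and 2 that were higher, where 49.3% of all genes did not overlap, 25.1% lower and 24.2% higher. On slide 2 alone, the median difference of the members between AR113Q replicate 1 and WT replicate 2 was -1.01, and 29 of 36 members were lower in AR113Q. Over all 16577 genes tested that median was -0.04, and 8580 genes were lower. This pair is 1 mouse of each genotype.

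**Figure D1:**
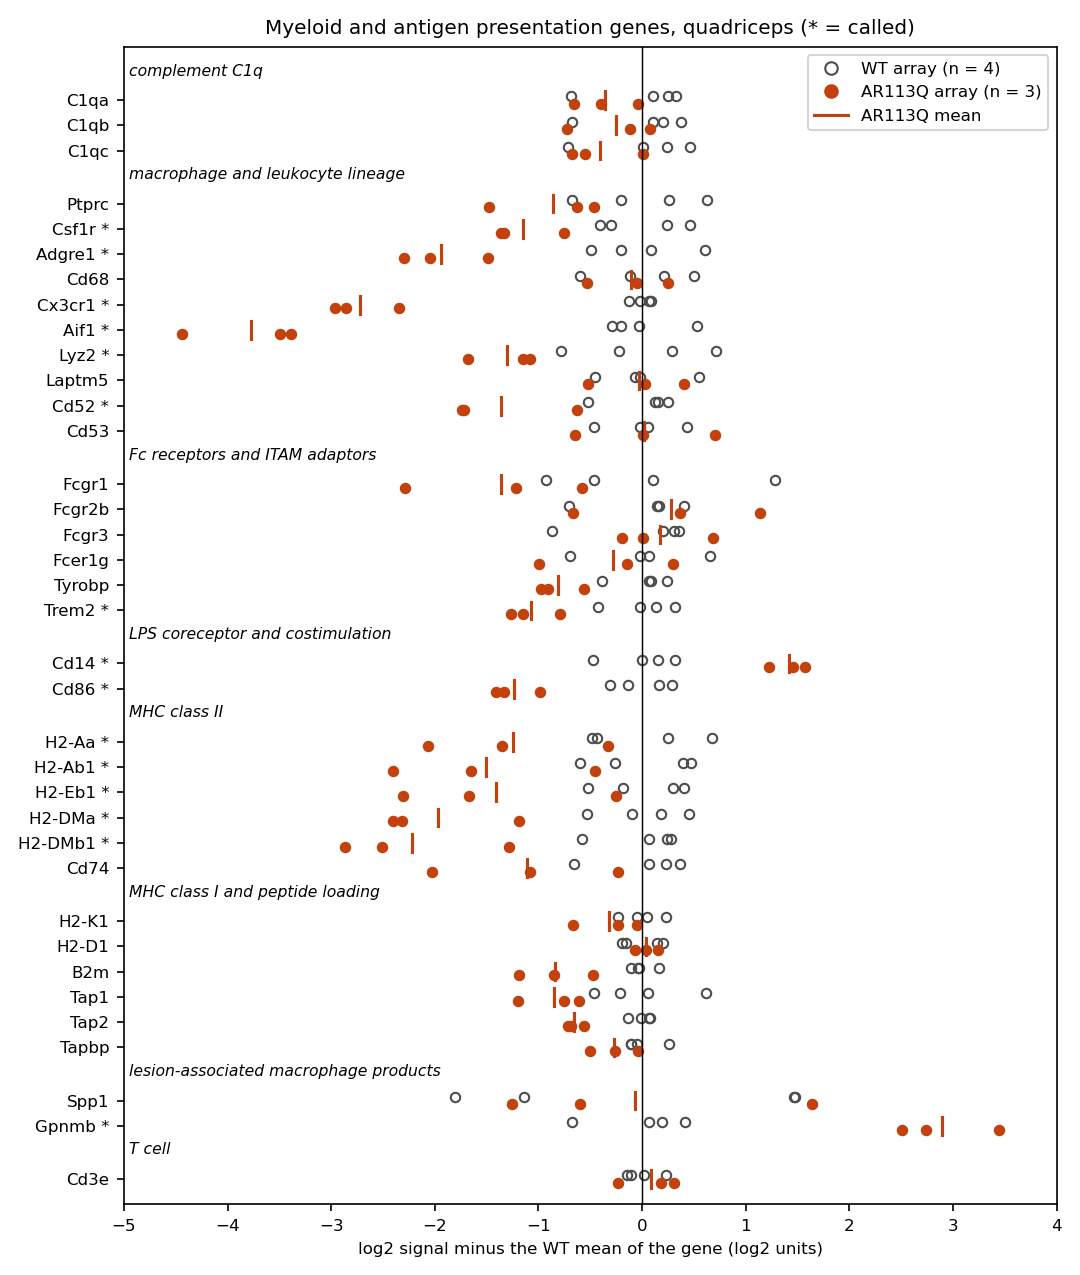
Log2 signal of each tested member on each array minus the mean of the gene over the 4 WT arrays, grouped by role, with open circles for WT, filled circles for AR113Q, and a bar at the AR113Q mean; an asterisk marks a called gene. Aif1 lies farthest to the left at a mean of -3.77 and Gpnmb farthest to the right at 2.90, while the 3 C1q genes and Cd68 overlap between genotypes.

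Among the 10 genes of the macrophage and leukocyte lineage, 6 were called lower, 0 were called higher, and Ptprc, Cd68, Laptm5 and Cd53 were not called. Aif1, which encodes the calcium-binding protein Iba1 of macrophages and microglia, fell most of all members with the processing given above. Its log2 signal was 8.53, 8.28, 8.36 and 9.10 in the 4 WT mice and 5.07, 5.18 and 4.13 in the 3 AR113Q mice. The groups lay far apart, and 1 AR113Q array was not well above background. The log2 fold change was -3.77 with a standard error (SE) of 0.31, which is 13.7-fold lower (adjusted p = 0.000148 from limma). The size and the rank depended on the processing. The log2 fold change of Aif1 was -1.71 with normexp correction and -1.74 with the mean spot intensity. The normalized values that the authors deposited gave -1.20 (adjusted p = 0.000801 from limma), and there H2-Ab1 fell more, at -1.45. Its probe spans 35307959 to 35308018 on the minus strand of chromosome 17 (mm9).

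Adgre1, which encodes the F4/80 antigen used to recognise mouse macrophages, gave 8.70, 8.18, 7.60 and 7.88 in WT and 6.04, 6.60 and 5.79 in AR113Q. Every AR113Q array was below every WT array. The log2 fold change was -1.94 (SE 0.30, adjusted p = 0.00158 from limma), and a second probe of the gene gave -1.70. With the authors' normalized values it was -0.73 and no longer past the fold threshold.

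Cx3cr1, the fractalkine receptor of monocytes and of many tissue macrophages, gave 4.79, 4.68, 4.58 and 4.77 in WT and 1.84, 2.36 and 1.74 in AR113Q. No AR113Q array had it well above background, so only a bound is known, at least 2.12-fold lower (adjusted p = 9.13e-05 from limma). With normexp background correction its log2 fold change was -0.30, and with the authors' values it was -0.14, neither of them called. Because it passed the filter through its WT arrays alone, it had to differ, and its place among the 13 genes called lower is no support for the count. A second probe, above background on 3 WT and 0 AR113Q arrays, overlapped between the genotypes and gives no usable fold.

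Csf1r, the receptor for colony stimulating factor 1 and interleukin 34 on which macrophages depend, gave 12.92, 12.71, 12.06 and 12.16 in WT and 11.10, 11.71 and 11.13 in AR113Q. Its groups did not overlap, and the log2 fold change was -1.15 (SE 0.27, adjusted p = 0.0097 from limma). The other 2 kept probes of the gene gave -0.91 and -0.74, past the adjusted p and under the fold threshold, and without WT replicate 1 the value was -0.99.

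Lyz2, the lysozyme of macrophages and granulocytes, gave 9.91, 9.48, 8.41 and 8.97 in WT and 8.11, 8.05 and 7.52 in AR113Q, a log2 fold change of -1.30 (adjusted p = 0.0179 from limma). Cd52, a small surface glycoprotein of leukocytes, gave 9.46, 9.43, 8.79 and 9.55 in WT and 7.59, 8.68 and 7.57 in AR113Q, a log2 fold change of -1.36 (adjusted p = 0.00999 from limma). The groups of both genes were separate by a narrow margin, set by WT replicate 3 for Lyz2 and by WT replicate 3 and AR113Q replicate 2 for Cd52. The call of Lyz2 was lost without AR113Q replicate 3 (-1.11, adjusted p = 0.0548), and both calls were lost with the authors' values (-0.85 for Lyz2 and -0.86 for Cd52).

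The remaining lineage genes overlapped between genotypes. Ptprc, which encodes CD45, the phosphatase on all leukocytes, gave 5.66 to 6.96 in WT and 4.86 to 5.88 in AR113Q (log2 fold change -0.86, adjusted p = 0.0856 from limma). Without WT replicate 3 it was called, at -1.08 with an adjusted p of 0.0381, but without AR113Q replicate 1 it was -0.55 (adjusted p = 0.269 from limma), and with the authors' values -0.22. Cd68, a lysosomal glycoprotein of phagocytes, gave 9.57 to 10.68 in WT and 9.64 to 10.42 in AR113Q, with a log2 fold change of -0.11. Laptm5, a lysosomal membrane protein of blood cells, had a log2 fold change of -0.03, and Cd53, a leukocyte tetraspanin, had one of 0.02.

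C1qa, C1qb and C1qc encode the chains of C1q, which starts the classical complement pathway and is made in tissues mainly by macrophages. C1qa gave 10.06 to 11.08 in WT and 10.09 to 10.71 in AR113Q. All 3 genes were lower on average in AR113Q, with log2 fold changes of -0.36, -0.25 and -0.41, but their groups overlapped and none passed the adjusted p (0.323, 0.519 and 0.305 from limma). In each of them WT replicate 3 was the lowest WT array. Without it the log2 fold change of C1qa was -0.59, whereas without AR113Q replicate 1 that of C1qa was -0.21 and that of C1qb -0.017.

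The promoters of Aif1 and C1qb, as a lineage gene that fell and a macrophage gene that was not called, are shown for the letters GAGGAA, the core that the myeloid factor PU.1 and other factors of its family are known to bind. RefSeq (GRCm38.p6) gave promoter windows for 27 of the 38 members, and the 250 bases before each start were searched on both strands. GAGGAA was found in 14 of the 27 members (51.9%) and in 25.9% of all genes with a window. It occurred in 5 of 7 lineage genes, in 3 of 5 Fc receptor and adaptor genes, in both C1q genes and both T cell genes with a window, in 1 of 4 class II genes and in 0 of 5 class I genes. Spi1, the gene of PU.1 itself, was not above background on any array. The 150 bases before the start read as follows, 5′ to 3′ on the strand of the gene, with GAGGAA or its reverse complement in capitals. The Aif1 sequence is chr17:35176053-35176202, minus strand, and the C1qb sequence is chr4:136886201-136886350, minus strand.
Aif1: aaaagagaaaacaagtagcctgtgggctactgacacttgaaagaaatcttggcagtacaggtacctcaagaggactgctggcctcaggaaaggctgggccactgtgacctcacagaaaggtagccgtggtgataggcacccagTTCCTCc
C1qb: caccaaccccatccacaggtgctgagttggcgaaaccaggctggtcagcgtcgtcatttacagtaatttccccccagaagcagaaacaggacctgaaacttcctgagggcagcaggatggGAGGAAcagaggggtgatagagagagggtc
Both promoters held the letters within the 30 bases before the start, at positions -7 to -2 in Aif1 and -30 to -25 in C1qb.

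Fc receptors bind antibody, and several of them signal through adaptors that carry an immunoreceptor tyrosine-based activation motif (ITAM), such as Fcer1g and Tyrobp. Of these 6 members 1, Trem2, was called. Trem2, a lipid receptor of macrophages and microglia that signals through Tyrobp, gave 6.51, 7.07, 6.92 and 7.25 in WT and 5.67, 6.15 and 5.79 in AR113Q. Its groups did not overlap and its log2 fold change was -1.07 (SE 0.22, adjusted p = 0.00531 from limma), just past the fold threshold. It was -0.97 without AR113Q replicate 1 and -0.96 without WT replicate 4, just under the threshold, and -0.27 with the authors' values. Tyrobp, also called DAP12, gave 10.93, 10.95, 10.48 and 11.11 in WT and 9.90, 10.31 and 9.96 in AR113Q, again without overlap. Its log2 fold change was -0.81 (adjusted p = 0.0123 from limma), which is under the fold threshold.

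The Fc receptors and their gamma chain did not pass the test. Fcer1g, the shared gamma chain, had a log2 fold change of -0.28, the inhibitory receptor Fcgr2b one of 0.28, and the activating receptor Fcgr3 one of 0.17. In Fcgr2b and Fcgr3 the positive sign depended on AR113Q replicate 2, since without it the values were -0.15 and -0.09. Fcgr1, the high-affinity receptor, gave 4.14 to 6.35 in WT and 2.78 to 4.49 in AR113Q, and was above background on 3 WT arrays and 1 AR113Q array (log2 fold change -1.36, adjusted p = 0.0852 from limma). Without WT replicate 3 it was called, at -1.67 with an adjusted p of 0.0494, but without AR113Q replicate 3 it was -0.89 (adjusted p = 0.245 from limma), and with the authors' values -0.17.

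Cd14 and Cd86, which belong to the sensing of bacterial lipopolysaccharide and to T cell costimulation, moved in opposite directions. Cd14, the coreceptor that hands lipopolysaccharide to Tlr4, gave 8.60, 8.44, 7.96 and 8.76 in WT and 9.90, 9.66 and 10.01 in AR113Q. All AR113Q arrays were above all WT arrays. Its log2 fold change was 1.42 (SE 0.21, adjusted p = 0.00149 from limma), 2.68-fold higher, and on slide 2 the difference was 1.46. It lay between 1.11 and 1.53 under all other settings. Cd86, a ligand that antigen presenting cells offer to CD28 on T cells, gave 6.23, 6.35, 5.75 and 5.93 in WT and 4.74, 5.08 and 4.66 in AR113Q, without overlap. It fell with a log2 fold change of -1.24 (SE 0.20, adjusted p = 0.00196 from limma), and gave -0.28 with the authors' values.

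Of the 7 class II members, 6 were tested, 5 were called lower and all 6 were lower on average, with a median log2 fold change of -1.46. With the processing given above, the largest changes were in the genes of H2-DM, which exchanges the invariant chain fragment for peptide in the endosome. H2-DMb1 gave 9.42, 9.21, 8.57 and 9.39 in WT and 6.64, 7.86 and 6.28 in AR113Q. H2-DMa gave 8.16, 7.89, 7.18 and 7.61 in WT and 5.31, 6.52 and 5.39 in AR113Q. In both genes the genotypes were separate, with AR113Q replicate 2 nearest to WT. The log2 fold change was -2.22 for H2-DMb1 (SE 0.39, adjusted p = 0.00274 from limma), or 4.67-fold lower. It was -1.97 for H2-DMa (SE 0.35, adjusted p = 0.00287 from limma), or 3.91-fold lower. With the authors' values H2-DMb1 was -1.33 and still called, and the call of H2-DMa was lost, at -0.70. H2-Ab1 and H2-Eb1 then fell more, at -1.45 and -1.37. On slide 2 H2-Ab1 also had the largest difference, at -2.87, so the order depended on the setting.

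The chains of the peptide-binding class II molecules fell too, with overlap between the genotypes. H2-Ab1, the beta chain of I-A, gave 12.83, 12.92, 11.85 and 12.18 in WT and 10.04, 11.99 and 10.79 in AR113Q. H2-Aa, its alpha chain, gave 10.69, 10.27, 9.58 and 9.54 in WT and 7.95, 9.69 and 8.66 in AR113Q. H2-Eb1, the beta chain of I-E, gave 12.70, 12.60, 11.78 and 12.11 in WT and 9.99, 12.04 and 10.62 in AR113Q. In all 3 genes AR113Q replicate 1 was the lowest array, and AR113Q replicate 2 lay within the range of the WT arrays. The log2 fold changes were -1.50, -1.25 and -1.41 with standard errors of 0.46, 0.44 and 0.46 (adjusted p = 0.03, 0.0489 and 0.0386 from limma). Without AR113Q replicate 2 they were -2.03, -1.71 and -1.99.

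Cd74, the invariant chain that escorts class II molecules to the endosome, gave 13.001, 12.861, 11.974 and 12.697 in WT and 10.603, 12.403 and 11.549 in AR113Q. Its log2 fold change of -1.11 was past the fold threshold and not past the adjusted p (0.0624 from limma). Without AR113Q replicate 2 it was called (-1.56, adjusted p = 0.017), as it was without WT replicate 3 (-1.33, adjusted p = 0.0415), but without AR113Q replicate 1 it was -0.66 (adjusted p = 0.194 from limma). The calls of H2-Aa, H2-Ab1 and H2-Eb1 were each lost when WT replicate 1 (adjusted p = 0.112, 0.0728 and 0.0903 from limma), WT replicate 2 (0.104, 0.0726 and 0.0867), AR113Q replicate 1 (0.165, 0.0987 and 0.129) or AR113Q replicate 3 (0.106, 0.0738 and 0.0981) was left out. The call of H2-Eb1 was also lost without WT replicate 4 (0.0622), and that of H2-Aa without WT replicate 3 (0.0535) or 4 (0.0515). The log2 fold changes in these fits lay between -0.84 and -1.47. Summed over the 6 tested class II genes on the linear scale, the signal ranged from 12511 to 24760 in WT and from 4014 to 14851 in AR113Q, so that the groups overlapped. None of the 3 probes of Ciita was well above background on an array, so it was not tested.

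The promoters of 3 class II genes and of B2m are shown for CCAAT, the last element of the promoter module (W, X and Y boxes) that class II genes and B2m are known to share, where it is the Y box. CCAAT was found in 4 of the 4 class II genes with a window and in 5 of 5 class I genes, and in 37.5% of all genes with a window. Among all 27 members with a window it was found in 15 (55.6%). The sequences are H2-DMb1 at chr17:34153041-34153190, plus strand, H2-Aa at chr17:34287824-34287973, minus strand, H2-Eb1 at chr17:34305717-34305866, plus strand, and B2m at chr2:122147537-122147686, plus strand, all in GRCm38.p6. Capitals mark CCAAT or its reverse complement ATTGG and, in B2m, also the interferon-stimulated response element, searched as GAAA, any 2 bases and GAAA again.
H2-DMb1: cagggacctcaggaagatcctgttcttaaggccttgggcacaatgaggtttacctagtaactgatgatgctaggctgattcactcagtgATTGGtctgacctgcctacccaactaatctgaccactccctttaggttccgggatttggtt
H2-Aa: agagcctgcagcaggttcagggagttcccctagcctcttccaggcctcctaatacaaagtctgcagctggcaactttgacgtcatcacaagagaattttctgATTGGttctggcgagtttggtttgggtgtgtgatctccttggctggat
H2-Eb1: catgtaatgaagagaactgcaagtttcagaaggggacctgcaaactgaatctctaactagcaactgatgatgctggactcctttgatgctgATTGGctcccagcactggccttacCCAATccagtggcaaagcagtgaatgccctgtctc
B2m: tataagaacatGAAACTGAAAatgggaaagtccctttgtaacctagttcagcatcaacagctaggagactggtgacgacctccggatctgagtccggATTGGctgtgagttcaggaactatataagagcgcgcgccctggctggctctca
ATTGG lay at positions -61 to -57 from the start in H2-DMb1, -48 to -44 in H2-Aa, -59 to -55 in H2-Eb1 and -53 to -49 in B2m. The interferon element was found in 3 of 27 members (11.1%) and in 3.46% of all genes, and TTCNNNGAA, the pattern bound by STAT dimers, in 1 of 27 members and 8.13% of all genes. No match of one motif overlapped a match of another in the member windows.

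Of the 6 class I heavy chain, light chain and loading genes, 0 were called, while B2m, Tap1 and Tap2 were lower past the adjusted p and under the fold threshold. B2m, the light chain of all class I molecules, gave 12.85, 12.58, 12.65 and 12.66 in WT and 11.49, 11.83 and 12.21 in AR113Q. Its groups did not overlap, and the log2 fold change was -0.84 (SE 0.19, adjusted p = 0.00996 from limma), or 1.78-fold lower. Without AR113Q replicate 3 it was called, at -1.02 with an adjusted p of 0.00371. Tap2, a subunit of the pump that brings peptides into the endoplasmic reticulum, gave 10.17, 10.04, 10.25 and 10.25 in WT and 9.61, 9.49 and 9.46 in AR113Q. That is a log2 fold change of -0.65 with little spread in either group (SE 0.14, adjusted p = 0.00675 from limma).

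Tap1, the partner of Tap2, was near the background, with 4.51 to 5.59 in WT and 3.78 to 4.36 in AR113Q and a log2 fold change of -0.85 (adjusted p = 0.0362 from limma). It was well above background on 2 AR113Q arrays, was called without WT replicate 2 (-1.01, adjusted p = 0.0261), and gave -0.09 with the authors' values. The heavy chains were not called. H2-K1 gave 12.52 to 12.99 in WT and 12.09 to 12.71 in AR113Q, with overlap and a log2 fold change of -0.32. Its second probe gave 11.24 to 11.87 in WT and 10.69 to 11.15 in AR113Q, without overlap and at -0.56 (adjusted p = 0.0517 from limma). H2-D1 gave 12.37 to 12.76 in WT and 12.49 to 12.71 in AR113Q, with a log2 fold change of 0.04. Tapbp, which holds class I at the pump, had a log2 fold change of -0.27. Class I genes resemble each other in sequence, and how far their probes hybridize to related genes was not examined.

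**Figure D2:**
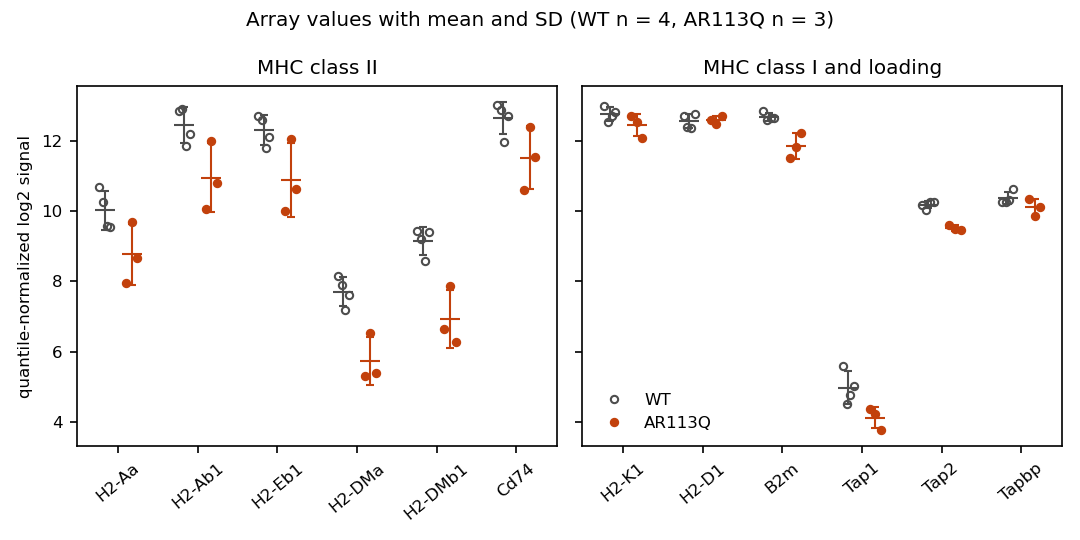
Quantile-normalized log2 signal of the tested class II genes on the left and of the class I and loading genes on the right, with open circles for the 4 WT arrays, filled circles for the 3 AR113Q arrays, and the mean with SD per genotype. In each class II gene the AR113Q arrays spread more widely than the WT arrays, with AR113Q replicate 2 on top, whereas H2-D1 overlaps fully and Tap2 is separate by a small step.

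Of the tested members, 10 have probes with a position in the MHC of chromosome 17, between 34065963 and 35403945 of mm9. Along that stretch the log2 fold changes ran from -0.27 in Tapbp and -0.32 in H2-K1 over -2.22 in H2-DMb1, -0.85 in Tap1, -0.65 in Tap2, -1.50 in H2-Ab1, -1.25 in H2-Aa and -1.41 in H2-Eb1 to -3.77 in Aif1 and 0.04 in H2-D1. H2-DMa (-1.97), whose gene also lies there, has a probe without a position in the array annotation and is left out of this order. Called genes and genes that were not called lay side by side within the locus.

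Gpnmb and Spp1 are products of the lipid-laden and phagocytic macrophages seen in damaged tissue, though other cells also make them. Gpnmb, a lysosomal transmembrane glycoprotein, gave 6.00, 6.12, 5.26 and 6.35 in WT and 9.37, 8.67 and 8.44 in AR113Q. It rose more than any other member, by a log2 fold change of 2.90 (SE 0.31, adjusted p = 0.000412 from limma), or 7.45-fold, and every AR113Q array was above every WT array. With the authors' values it was 1.44. Spp1, which encodes osteopontin, was above background on 2 WT arrays and 1 AR113Q array only, with 1.46 to 4.74 in WT and 2.01 to 4.91 in AR113Q, and gives no usable comparison (log2 fold change -0.07).

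Of the 2 T cell genes among the members, 1 was tested. Cd3e, a chain of the T cell receptor complex, gave 6.98, 7.11, 6.94 and 7.32 in WT and 7.27, 6.86 and 7.40 in AR113Q, with overlap and a log2 fold change of 0.09 (adjusted p = 0.723 from limma). Cd8a and Cd3d were well above background on 0 arrays and Cd3g on 1, whereas the Cd3e probe was so on all 7. Whether that probe reads T cells was not tested.

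Further genes of the same cells and pathways, in lists that hold no member except Csf1r, were read the same way. Of 16 genes of resident macrophages, 10 were called lower and 1 higher, with a median log2 fold change of -1.88, or -0.96 with normexp correction, -1.01 with the mean spot intensity and -0.77 with the authors' values. In these 3 settings 8, 8 and 7 were called lower. Siglec1 and Timd4, named after their values were seen, are among the 10 but were well above background on 3 WT arrays and 0 AR113Q arrays, so they had to differ and are no support for the count, which was 7 with the filter on all 7 arrays. The largest decrease in that list was Cbr2, a carbonyl reductase, at -2.76 (adjusted p = 9.1e-05 from limma), and the gene that rose was Cd163, the haemoglobin scavenger receptor, at 1.18, or 0.93 and not called without AR113Q replicate 2 and 0.49 and not called with normexp correction. The summed signal of the 16 genes was 29450 to 37905 in WT and 13072 to 17937 in AR113Q, without overlap. In the ligand and survival genes of the colony stimulating factor pathway, Csf1r included, 4 of 9 were called lower and 2 higher, the latter 1 without WT replicate 1 or 3 or AR113Q replicate 2. Csf1 (-1.29) and Il34 (-1.17), the ligands of Csf1r, were among those called lower and were named after their values were seen. With the authors' values they were -0.73 and -0.74 and were not called, nor were they with normexp correction or the mean spot intensity. The list then had 1, 2 and 2 genes called lower. With the mean over a gene's probes Csf1 was -0.69 and not called, and 2 genes of the list were called lower. By the fixed rule, Csf2ra was lower at -1.54 and Runx1, a transcription factor of blood cells that muscle fibres also make on denervation, was higher at 5.62, with 3 WT arrays above background. Their sizes depended on the processing, since Runx1 was 3.36 with normexp correction and 2.83 with the authors' values, called in both. The filter on all 7 arrays removed the Runx1 probe, and another probe of the gene stood for it, called at 2.37. The mean over the probes of Runx1 was 3.995. Csf2ra gave -0.97 with the authors' values and was not called.

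Complement genes outside C1q were called lower in 6 of 16 cases and higher in 1. Cd55, which protects cells from complement, had the largest decrease, at -2.28. C3, named after its values were seen, was lower at -1.52. Genes of the phagocyte oxidase and killing were called lower in 4 of 10 cases, led by Ncf4 at -1.85, but in 1 with normexp correction and in 0 with the authors' values. Genes of ITAM signalling were called lower in 4 of 12 cases, and 0 were called higher. Without AR113Q replicate 1 or 3, 2 of them were called lower, and with normexp correction, the mean spot intensity or the authors' values there were 0.

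In the machinery around the MHC molecules, 2 of 12 tested class II regulators and endosomal processing genes were called lower and 1 higher. Of those called lower, Cd40, a costimulatory receptor named after its values were seen, was well above background on 3 WT arrays and 0 AR113Q arrays, so it had to differ and is no support for the count. With normexp correction, the mean spot intensity, the authors' values, the filter on all 7 arrays or the replicate number as a block, 1 gene of this list was called lower. Rfxank, a subunit of the RFX complex that binds the class II promoters, was lower at -1.93 (adjusted p = 0.00074 from limma) and at -1.24 with the authors' values, and Ifi30, an endosomal thiol reductase, was higher at 1.36, or 0.91 and not called without AR113Q replicate 1. Of 16 class I processing and nonclassical class I genes, 4 were called lower and 0 higher. Psmb9, an inducible subunit of the immunoproteasome, had the largest decrease, at 9.59, 8.88, 9.40 and 9.26 in WT and 6.51, 7.21 and 6.19 in AR113Q. That is a log2 fold change of -2.64 (adjusted p = 0.00036 from limma), or -1.66 with normexp correction and -1.37 with the authors' values, and Canx, a chaperone of the endoplasmic reticulum, was 0.67. Psmb8 (-1.46) and the class I transactivator Nlrc5 (-1.81, well above background on 2 AR113Q arrays, and -0.33 and not called with the authors' values) were named after their values were seen. With normexp correction, the mean spot intensity or the authors' values, 2 genes of this list were called lower.

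In the interferon pathway 16 of 32 tested genes were called lower and 0 higher, with a median of -1.04. Oas1a, which senses double-stranded RNA, had the largest decrease, at 8.61, 8.59, 7.98 and 9.56 in WT and 5.67, 6.82 and 4.52 in AR113Q (log2 fold change -3.02, adjusted p = 0.0032 from limma). It was smaller and still called with normexp correction (-1.60), the mean spot intensity (-1.67) and the authors' values (-1.21). Ifnar1, a chain of the type I interferon receptor, was 0.63. Irf1, a factor induced by interferon gamma and named after its values were seen, was lower at -1.03, but under the threshold without AR113Q replicate 1 (-0.94) or WT replicate 4 (-0.90). The count of interferon genes called lower was 10 with normexp correction and 8 with the authors' values.

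**Figure D3:**
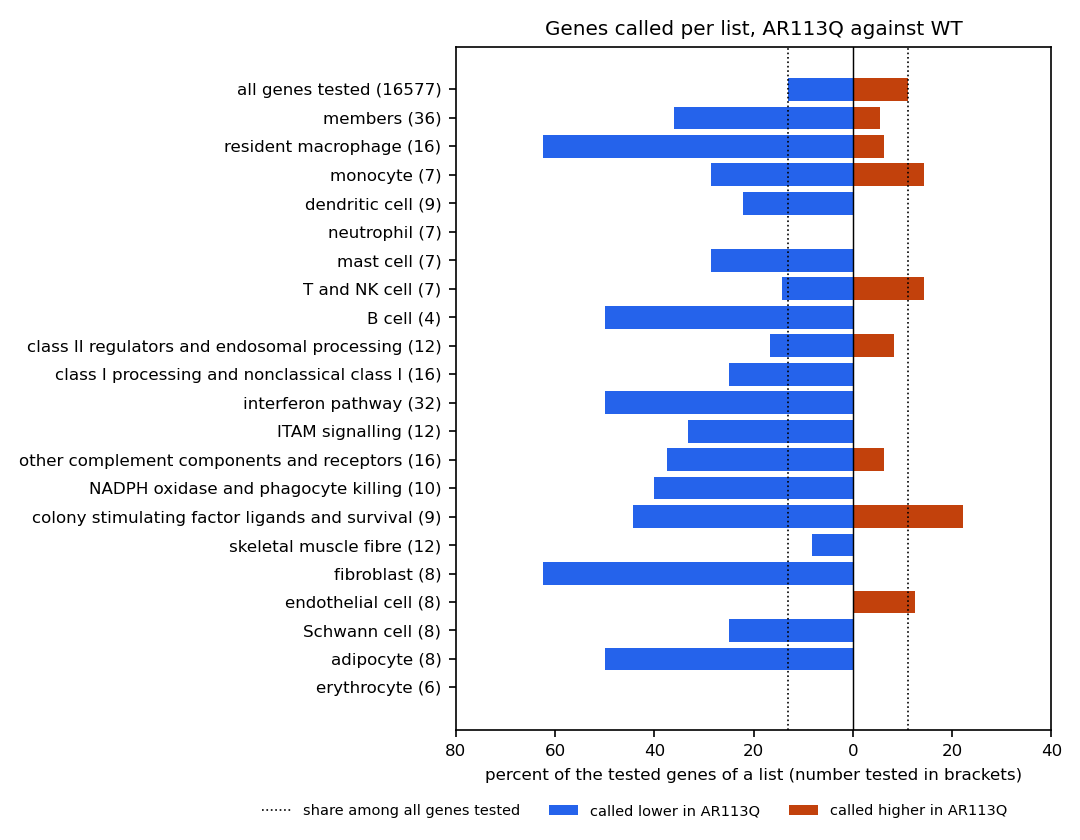
Percent of the tested genes of each list that were called lower (bars to the left) or higher (bars to the right) in AR113Q, with the number tested in brackets and dotted lines at the shares among all genes tested, 13.1% lower and 11.2% higher. The resident macrophage and fibroblast lists reach 62.5% lower and the interferon list 50%, while the neutrophil and erythrocyte lists have no called gene.

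Markers of other cells were called in some lists and not in others, where 13.1% of all genes tested were called lower and 11.2% higher. The part of these cells in the members' values was not tested. Of 7 monocyte genes, 2 were called lower (largest Nr4a1, -2.22) and 1 higher (Chil3, 3.29, or 1.34 with normexp correction, well above background on 2 WT arrays), and Ccr2, the receptor of inflammatory monocytes, was well above background on 0 arrays. Nr4a1 gave 14.40 to 15.69 in WT and 12.03 to 13.72 in AR113Q, and which cells gave this signal was not tested. The monocyte genes called lower numbered 1 without WT replicate 1, 2 or 4 and 3 without AR113Q replicate 2, and those called higher numbered 2 without WT replicate 4. Dendritic cell genes were called lower in 2 of 9 cases, the largest being Itgax at -2.18, which was above background on 2 WT arrays and 1 AR113Q array, and Zbtb46 was 0.72. With normexp correction or the mean spot intensity Itgax was -0.26 and -0.24, and in these settings and with the authors' values 0 dendritic cell genes were called lower. The defining genes Xcr1 and Clec9a were above background on 0 and 1 arrays. The summed signal of the 9 dendritic cell genes was 4832 to 7207 in WT and 5286 to 6001 in AR113Q.

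For B cells, which also make class II, 4 genes were tested and 2 were called lower, with Blnk at -1.73, and the defining genes Ms4a1 and Pax5 were above background on 0 arrays and Cd79a on 1. The count was 1 without WT replicate 1, 2 or 4 or AR113Q replicate 1 and with normexp correction, and 0 with the authors' values, where Blnk was -0.86. The 4 tested genes summed to 409 to 594 in WT and 131 to 233 in AR113Q. Mast cell genes were called lower in 2 of 7 cases (largest Cma1, -2.04, well above background on 2 AR113Q arrays), and T and NK cell genes in 1 of 7 (Cd2, -1.86, well above background on 1 AR113Q array), with Zap70 higher at 1.44, but with normexp correction, the mean spot intensity or the authors' values 0 of the 7 were called. The mast cell count was 0 without WT replicate 2 or 4. None of the 7 tested neutrophil genes was called with all arrays, while 4 were called higher without WT replicate 4. Their median difference from the WT mean was 3.097 in that array and between -1.02 and -0.89 in the other WT arrays, and Mpo and Ngp were above background on 0 arrays.

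Among cells that are not leukocytes, fibroblast genes were called lower in 5 of 8 cases with a median of -2.32, led by Thy1 at -3.44, and their summed signal was 102469 to 127886 in WT and 75968 to 108233 in AR113Q. Adipocyte genes were called lower in 4 of 8 cases, led by Adipoq at -2.71, with Lipe at 0.90, and in 2 cases without WT replicate 2 or 4 or without AR113Q replicate 1 or 2. Schwann cell genes were called lower in 2 of 8 cases, with Mbp at 0.56, and in 0 or 1 cases when any array but WT replicate 4 was left out. Endothelial genes were called higher in 1 of 8 cases, Cldn5 at 1.30, a call lost without AR113Q replicate 2 or 3, and 0 were called lower. Skeletal muscle fibre genes, the defining markers of the tissue, were all above background, and 1 of 12 was called, Mylpf at -1.37, with a median of -0.20 over the list. With scaling to the 75th percentile 4 of them were called lower and the median was -0.60, and with the mean over a gene's probes 0 were called and Mylpf was -0.97. Erythrocyte genes had 0 calls of 6, with the high values in WT replicates 3 and 4 given above.

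Across arrays, the members did not fall by the same amount in each AR113Q mouse. The median difference of the 36 members from the WT mean was -1.04 in AR113Q replicate 1, -0.48 in replicate 2 and -0.70 in replicate 3, and -0.48 in WT replicate 3. For class II alone the medians were -2.35, -0.39 and -1.66 in the AR113Q replicates. For class I they were -0.31, -0.59 and -0.57, so the mouse with the smallest difference in class II was not that with the smallest difference in class I. On slide 2, which compares 1 mouse of each genotype, the median difference was -2.58 over class II, -1.49 over the lineage genes and -0.04 over class I.

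**Figure D4:**
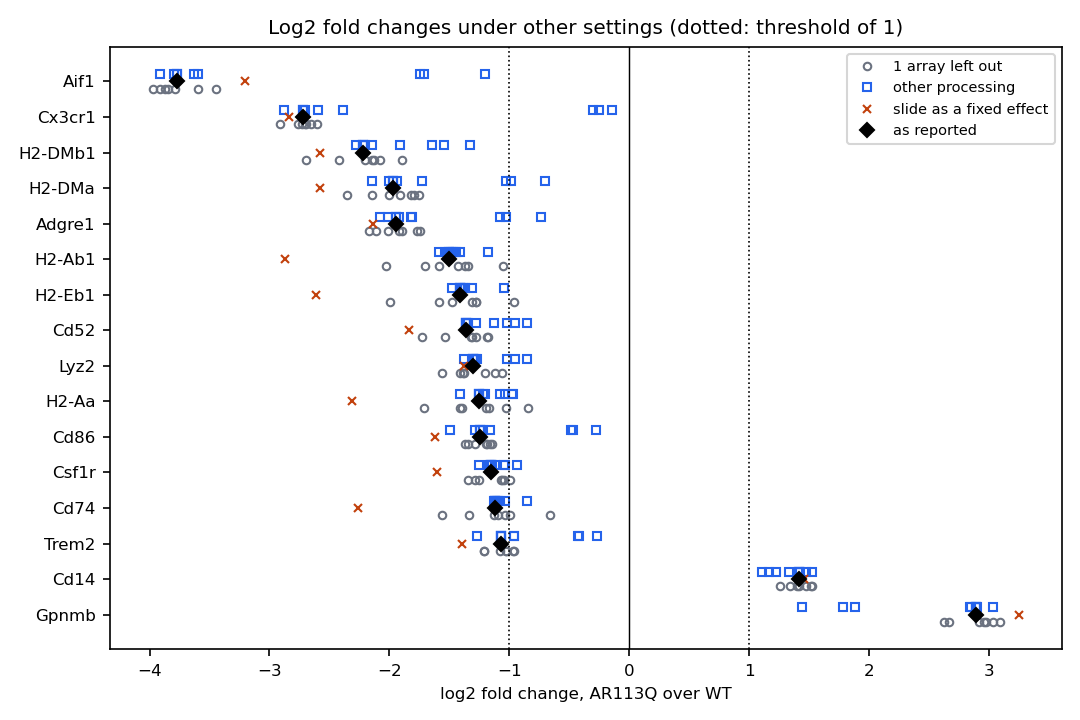
Log2 fold change of the 15 called members and of Cd74 as reported (diamonds), with 1 array left out (circles), with other processing (squares) and with slide as a fixed effect (crosses), where dotted lines mark the fold threshold of 1. Every value kept its sign, and the 3 squares nearest to 0 for Aif1, Cx3cr1, Cd86 and Trem2 are the settings that keep the background in the signal or correct it by normexp.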

How the data were processed

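Quadriceps RNA of 4 WT and 3 AR113Q mice was read on 7 arrays. The authors scanned them and extracted spots with Agilent Feature Extraction 10.7.3.1, and deposited an intensity per spot that is background-subtracted and detrended within the array, together with mean spot and local background intensities. The authors also deposited quantile-normalized log2 values of 18592 probes, used as an alternative.

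Here the log2 of the processed intensity was quantile normalized over non-control spots without outlier spots (94 to 151 per array), and spots of a probe were averaged. Probes were kept if 3 of the 7 arrays or more had them well above background (20991 of 39429), and the brightest probe stood for its gene. Names came from RefSeq accessions for 28330 probes. A linear model per gene (limma 3.58.1, R 4.3.3) tested genotype with moderated variances from eBayes, and p-values of 16577 genes were adjusted by the Benjamini-Hochberg method. The procedure was tested on simulated data. Probe positions come from the array annotation (mm9); promoter sequences and names are from RefSeq on GRCm38.p6, and 11 members had no promoter window in that table. For a gene not well above background in 1 genotype, the bound on its fold set the bright mean against, per array, the higher of the lowest signal well above background and the gene's own.

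The members and lists were chosen with earlier results of these data known. All members are named; from each other list, the gene with the largest increase and the one with the largest decrease among those with an adjusted p of at most 0.05. Some genes that this rule names are not reported here. The number of arrays limits the precision. Each mouse is a replicate, and whether mice shared a litter is not given in the sources used here.

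Alternatives tried were 75th percentile scaling, normexp with an offset of 50, the mean spot intensity, the authors' values, no dim-probe filter, a filter on all 7 arrays, the mean over probes, an intensity trend, array weights, slide as a random or fixed effect, the replicate number as a block, no fold threshold and each array left out.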

Additional observations from a re-analysis of the deposited data

Results flagged for a closer look

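Within the 4 WT arrays, 3 of the 36 tested members had 1 array far from the rest by Dixon's ratio of the gap to the nearest array over the range of the group. Chance alone gives such a gap in about 1 in 20 groups. Cd52 was 8.786 in WT replicate 3 where the other WT arrays lay between 9.43 and 9.55, and Fcgr3 was 7.466 in the same array where the others lay between 8.54 and 8.69. Tapbp was 10.635 in WT replicate 4 where the others lay between 10.26 and 10.32. WT replicate 3 was the lowest WT array for most members, as given above, and the part of that array in each value is given by the fit without it. Without WT replicate 3 the log2 fold change was -1.53 for Cd52, which was called with and without that array, and -0.12 for Fcgr3, which was called in neither case.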

How the results depend on the processing

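Slide as a fixed effect leaves the pair on slide 2, and the members called were 0 lower and 0 higher and all genes 0 lower and 0 higher. Members called lower were 8 with normexp and 5 with the authors' values, and those called higher 2 in both. All genes called higher were 812 with normexp, 874 with the mean spot intensity, 624 with the authors' values and 3484 without a fold threshold, and those called lower 951, 1030, 741 and 3745. With 1 array left out, the members called lower numbered 9 to 15 and higher 2 to 2, and all genes 1924 to 2319 lower and 1543 to 2012 higher. Whether mice with the same replicate number were paired is not given in the sources used here. Same-number correlations were 0.0368, -0.0224 and 0.156, and those of the other pairs lay between -0.174 and 0.119. With the number as a block 11 members were called lower and 2 higher. Apart from the fixed slide effect, Cd14, Gpnmb and H2-DMb1 lost no call in any setting, nor did Aif1 in the settings that tested it (the filter on all 7 arrays removed it). H2-Aa lost its call in 13 of 19 settings, the fixed slide effect among them. No called member changed sign. Signs changed only in members that were not called. With slide fixed, the log2 fold change became 0.041 in Cd68, -0.70 in Cd53, -0.82 in Fcgr2b, -0.50 in Fcgr3, 0.18 in H2-K1 and 0.070 in Tapbp. With the number as a block it became 0.060 in Cd68 and 0.15 in Laptm5. In Laptm5 it was 0.022 with normexp, 0.030 with the mean spot intensity and 0.016 with the authors' values, and in Spp1 it was 0.042 with normexp, 0.017 with the mean spot intensity and 0.0084 with slide as a random block. Scaling to the 75th percentile gave -0.24 in Cd53 and -0.040 in Cd3e, and array weights gave -0.0097 in H2-D1 and -0.025 in Cd3e. With 1 array left out, the values ranged from -0.31 to 0.10 in Cd68, -0.25 to 0.22 in Laptm5, -0.32 to 0.36 in Cd53, -0.15 to 0.75 in Fcgr2b, -0.12 to 0.35 in Fcgr3, -0.57 to 0.074 in Fcer1g, -0.024 to 0.11 in H2-D1, -0.93 to 0.52 in Spp1 and -0.022 to 0.25 in Cd3e. The cause of these differences was not tested. The signal over background limits Aif1, Cx3cr1, Fcgr1, Tap1 and Spp1, which were not above background on every array.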
